A study of Mus musculus with 2 samples.

Results

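Neutrophils with little or no messenger RNA of the stefin A genes were examined in inflamed mouse ear skin. They were selected on their own reads, within the cells of 1 single-cell cDNA library and its hashtag library. A cell was a member if its barcode had at most 20% mitochondrial reads and at least 200 genes, and if it met 4 further limits in CPM, the reads of a gene per 1000000 reads of the cell. The calprotectin genes S100a8 and S100a9 had to sum to at least 5000 CPM, and the receptor genes Csf3r and Cxcr2 to at least 100 CPM. The stromal and epithelial genes Dcn, Krt5 and Krt14 had to sum to under 2000 CPM, and the 6 genes Stfa1, Stfa2, Stfa2l1, Cstdc4, Cstdc5 and Csta3 to under 2000 CPM. Of 8953 barcodes, 8359 met the mitochondrial and gene limits, 1082 were neutrophils by the limits on calprotectin, receptor, stromal and epithelial genes, and 555 of these were members. The other 527, at or above the stefin limit, are called stefin-A-high neutrophils.

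The mice were BALB/c, either wild-type (WT) or without the chemokine receptor gene Ccr2 (CCR2-KO in the labels, Ccr2-/- here). All received 300 µg of anti-TNP IgE and then 10 µg of TNP-conjugated OVA into the ear skin, which starts IgE-mediated chronic allergic inflammation (IgE-CAI). Cells from ears taken on day 3 or day 5 after challenge gave 4 pools, 1 for each genotype and day, each stained with 1 hashtag antibody and then mixed. The number of mice behind each pool is not given in the sources used here, and the Ccr2 deletion was present in every cell type of the mouse. A cell was given to a pool if its highest hashtag value was at least 3 times the next, which placed 531 members. The 24 members without a pool had a median of 16972 reads and 2.32% mitochondrial reads, beside 9722 reads and 0.726% over all members. Barcodes that carried a hashtag mixture therefore stayed out of the pool values, and no doublet caller was run.

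Neutrophils are short-lived granulocytes that enter inflamed tissue from the blood. In the tissue they switch on genes for IL-1, for chemokines that call in further leukocytes, and for receptors that sense microbes and damaged cells. Stefin A proteins are small inhibitors of cysteine proteases such as cathepsins, and mice carry several copies of the gene side by side. Calprotectin, the dimer of S100A8 and S100A9, is among the most abundant proteins of the neutrophil cytosol.

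The 6 genes of the limit lie on chromosome 16 together with Stfa3, a neighbour that the limit did not use. The stretch before the start of each gene is shown because these are the genes that divide the neutrophils. The capitals mark the 12-base run ACCTTTAAAACC, the longest run shared by all 7 stretches of 250 bases before the RefSeq starts (build GRCm38.p6). Each line runs 5′ to 3′ on the strand of the gene.
Stfa1 (chr16:36277075-36277126, plus strand): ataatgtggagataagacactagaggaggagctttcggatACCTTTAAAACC
Stfa2 (chr16:36408384-36408435, minus strand): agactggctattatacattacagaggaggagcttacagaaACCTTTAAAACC
Stfa2l1 (chr16:36156735-36156786, plus strand): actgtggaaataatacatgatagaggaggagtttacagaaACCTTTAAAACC
Cstdc4 (chr16:36184140-36184191, plus strand): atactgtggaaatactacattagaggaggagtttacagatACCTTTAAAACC
Cstdc5 (chr16:36367571-36367622, minus strand): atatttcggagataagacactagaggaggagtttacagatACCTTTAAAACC
Csta3 (chr16:36210283-36210334, plus strand): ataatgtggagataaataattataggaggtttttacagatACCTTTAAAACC
Stfa3 (chr16:36455415-36455466, minus strand): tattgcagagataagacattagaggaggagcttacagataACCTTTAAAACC

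The run began 12 bases before the start in Cstdc5, 80 bases before it in Csta3, and 32 to 36 bases before it in the other genes. On either strand it was in 11 of all 32851 promoter windows of the same length (0.0335%). The 7 stefin genes that defined the run are among these matches, so their part of the count was fixed in advance. Transcripts of these genes share long stretches, so reads could not always be placed. In the GENCODE M21 transcripts, 28.2% of the 50-base windows of Cstdc5 and 23.9% of those of Stfa1 were also in another stefin transcript, against 0% for Cstdc4, Csta3 and Stfa3. The 6 genes are therefore given as a sum, and the level of a single copy is not reported for the members.

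Over all gated neutrophils the summed stefin level spread from 0 to over 50000 CPM, with 341 of the 1082 cells at 0 reads. Among members 17 of the 30 WT day 3 cells, 91 of the 159 Ccr2-/- day 3 cells and 218 of the 340 Ccr2-/- day 5 cells had no read of the 6 genes. The 3 members nearest to the limit had 1996, 1975 and 1965 CPM, and the 3 nearest cells above it had 2004, 2015 and 2018 CPM, so the limit cut through a continuous range. In the high neutrophils the median was 5212 CPM in WT day 3, 6891 CPM in WT day 5, 8854 CPM in Ccr2-/- day 3 and 10334 CPM in Ccr2-/- day 5. These values chose the cells and are a description only.

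**Figure D1:**
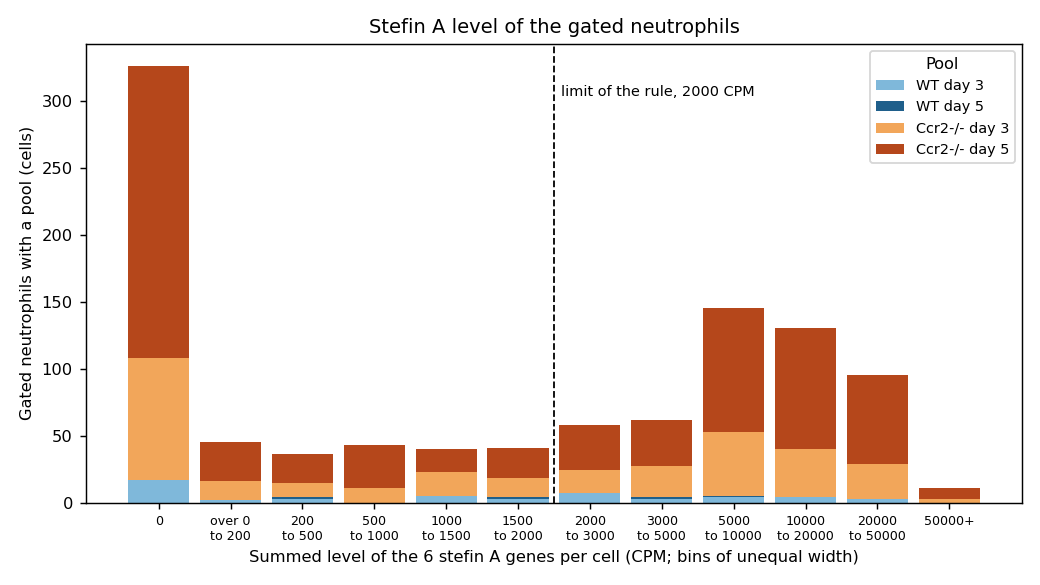
Gated neutrophils with a pool by their summed level of the 6 stefin A genes (CPM, bins of unequal width), with the bars stacked by pool and the dashed line at the limit of 2000 CPM. Cells without a pool are not drawn. The bin of 0 reads is the highest bar, with 17 WT day 3, 91 Ccr2-/- day 3 and 218 Ccr2-/- day 5 cells. The bin just below the limit holds 14 Ccr2-/- day 3 and 23 Ccr2-/- day 5 cells, and the bin just above it 17 and 34.

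Members made up a small part of the WT pools and a larger part of the Ccr2-/- pools. They were 30 of the 1613 cells of WT day 3 (1.86%, exact 95% binomial interval 1.26 to 2.64%) and 2 of the 1091 cells of WT day 5 (0.183%, 0.0222 to 0.661%). They were 159 of 2274 cells in Ccr2-/- day 3 (6.99%, 5.98 to 8.12%) and 340 of 2522 cells in Ccr2-/- day 5 (13.5%, 12.2 to 14.9%). Both Ccr2-/- pools lay above both WT pools, and the intervals, which cover counting error only, did not overlap between genotypes. The mean over pools was 1.02% for WT and 10.2% for Ccr2-/-, which is 9.22 percentage points apart. An exact two-sided permutation test of the 2 pools per genotype gave p = 0.333 (adjusted p = 0.667 over 2 tests), and 0.333 is the smallest p that 4 pools allow. Within day 3 the Ccr2-/- pool was 5.13 points above the WT pool, and within day 5 it was 13.3 points above. Shares of a pool cannot separate more neutrophils from fewer cells of other types.

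The stefin limit split the neutrophils of each pool into nearly equal parts. Members were 30 of 51 neutrophils in WT day 3 (58.8%, 44.2 to 72.4%), 2 of 4 in WT day 5, 159 in Ccr2-/- day 3 (51.0% of its neutrophils, 45.3 to 56.6%) and 340 of 665 in Ccr2-/- day 5 (51.1%, 47.3 to 55.0%). Every interval overlapped the others. The pools averaged 54.4% for WT and 51.0% for Ccr2-/-, so Ccr2-/- minus WT was -3.37 points (exact two-sided permutation p = 1, adjusted p = 1). The difference was -7.86 points within day 3 and 1.13 points within day 5. Its sign also turned with the limit and with the WT day 3 pool: it was 8.84 points at a limit of 1000 CPM and 1.04 points without WT day 3.

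**Figure D2:**
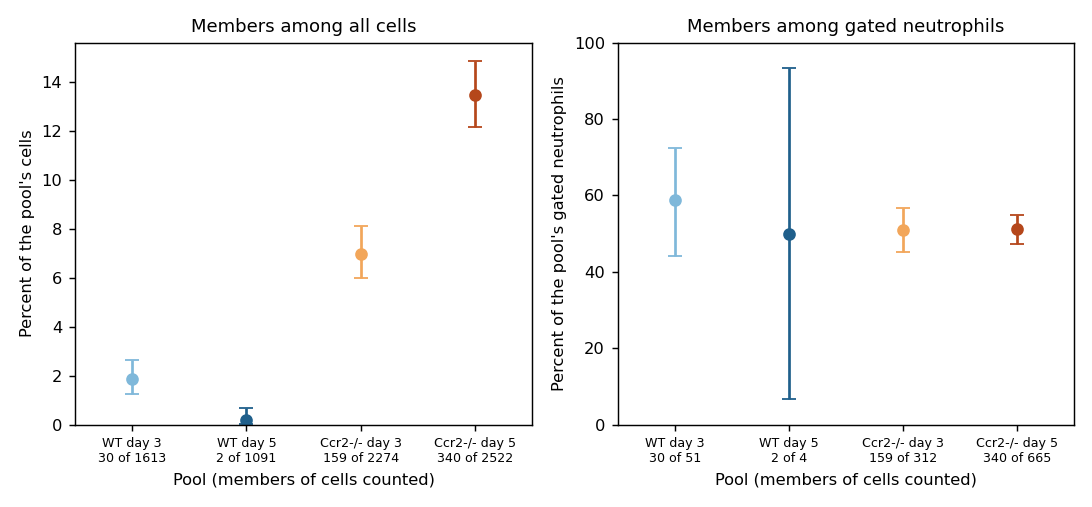
Points give the members as percent of all cells (left) and of the gated neutrophils (right) of each pool, with exact 95% binomial intervals for counting error. The left share is lowest in WT day 5 at 0.183% and highest in Ccr2-/- day 5 at 13.5%, while the right share lies between 50% and 58.8% in all 4 pools.

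The depth of members was close to that of the high neutrophils and below that of most other cells, with medians of 9722 reads and 1018 genes in members, 9994 reads and 991 genes in high neutrophils and 32594 reads over all cells. By pool their median depth was 8580.5 reads and 904 genes in WT day 3, 10312 reads and 1050 genes in Ccr2-/- day 3, and 9473 reads and 1009.5 genes in Ccr2-/- day 5. After thinning every cell to 3000 reads the members of these 3 pools had a median of 652 to 671 genes and the high neutrophils 644 to 656, against 1284 to 1322 in the macrophage gate described below. The 2 WT day 5 members had 7022 and 14262 reads, too few for a level, and that pool is left out of the gene comparisons. Reads of 1 cell can set a sum: the deepest of the 30 WT day 3 members had 45419 of their 378538 reads, and the deepest member held 6.12% of all member reads in Ccr2-/- day 3 and 3.30% in Ccr2-/- day 5.

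The cell type markers fixed for these cells were S100a8, S100a9, Csf3r, Hcar2, Acod1 and Il1rn, of which the limits had used the first 3. Among markers of other cells, those of eosinophils, keratinocytes and lymphocytes summed to under 32 CPM in each of these pools. The 10 monocyte-macrophage markers summed to 2362 CPM in WT day 3, where 8 of 30 cells were at 1000 CPM or more and 1 cell held 35.2% of the reads. They summed to 310 CPM in Ccr2-/- day 3 and to 574 CPM in Ccr2-/- day 5. The 6 fibroblast markers summed to 1981, 3408 and 2093 CPM in members and to 1308, 2587 and 1858 CPM in the high neutrophils of the same pools. Dendritic cell markers summed to 1791 CPM in WT day 3, with 81.7% of the reads from 1 cell, and to 572 and 661 CPM in the Ccr2-/- pools. Endothelial markers summed to 431 CPM in WT day 3, all from 1 cell, and to 294 and 107 CPM in the Ccr2-/- pools. Basophil and mast cell markers summed to 15.9, 19.7 and 304 CPM in the 3 pools. Erythroid and platelet markers summed to 0, 11.4 and 134 CPM, with 80.4% of the Ccr2-/- day 5 reads from 1 cell.

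The deleted gene was checked first. Reads of Ccr2 in the macrophage gate stood at 1145 CPM in WT day 3 and 721 CPM in WT day 5, against 159 CPM in Ccr2-/- day 3 and 157 CPM in Ccr2-/- day 5. Members had 658, 0, 5.18 and 6.85 CPM in the same order. All Ccr2 reads of the WT day 3 members came from 13.3% of the cells, and without the members that carried macrophage genes the level there was 0 CPM. Ccr2 is therefore no result about the neutrophils.

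The genes that marked the members beyond the limits were at high levels and were shared with the high neutrophils. Hcar2 encodes the receptor for the ketone body beta-hydroxybutyrate and for niacin. It had 943 CPM in WT day 3 (exact 95% Poisson interval 848 to 1046), 1580 CPM in Ccr2-/- day 3 (1525 to 1638) and 1633 CPM in Ccr2-/- day 5 (1592 to 1674), beside 1739, 1750 and 1434 CPM in the high neutrophils. Acod1, the enzyme that makes itaconate in activated myeloid cells, had 1796, 2727 and 2993 CPM in members and 2245, 3092 and 2925 CPM in high neutrophils. Il1rn, the secreted antagonist of the IL-1 receptor, had 618, 3549 and 2497 CPM in members and 493, 3094 and 2233 CPM in high neutrophils. In the Ccr2-/- pools the log2 ratios of low to high neutrophils lay between -0.18 and 0.20 for these genes.

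In fibroblast-gate cells, a cell type not known for these genes, they stood at 2.98 CPM for Hcar2, 4.66 CPM for Acod1 and 4.79 CPM for Il1rn. At 3000 reads per cell, Hcar2 had a read in 66.7% and 66.2% of members of the Ccr2-/- pools and in 0.904% of fibroblast-gate cells, and Acod1 in 70.4% and 78.2% against 1.41%. Without thinning the median depths were 10312 and 9473 reads in members and 56872 reads in fibroblast-gate cells, and the level of free RNA in barcodes as shallow as the members was not tested.

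The stefin-low and stefin-high neutrophils were set side by side in each Ccr2-/- pool over the 2646 genes with at least 50 CPM in either group of both pools. This is the contrast that the limit itself makes, so sizes are given and no test. Members were at least 2-fold higher in both pools for 22 genes (0.831% of those compared) and at least 2-fold lower for 4 genes (0.151%). The median log2 ratio over all genes was 0.07 on day 3 and 0.10 on day 5.

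Few genes of any kind reached 2-fold in both pools (0.831% higher and 0.151% lower), so a count of 0 in a short list is near that share. Several lists of inflammatory genes held no such gene, in either direction. These were the 23 activation receptors (median log2 ratio -0.16 on day 3 and -0.03 on day 5), 9 genes of the IL-1 family and inflammasome (-0.15 and -0.05), 9 chemokines (-0.16 and -0.11), 19 genes of TNF and NF-kB feedback (0.07 and 0.02) and 15 interferon-stimulated genes (-0.22 and -0.30). Among 12 genes of tertiary granules and secretory vesicles, which neutrophils make late in the marrow, the count was also 0 in both directions, and the medians were -0.36 and -0.30. Of 6 other cytokines Il6 was at least 2-fold higher (log2 ratios 1.68 and 2.43) and none was lower. In WT day 3, with 30 members and 21 high neutrophils, the inflammatory lists lay lower in members. Their medians were -0.61, -0.41, -0.51, -0.69 and -0.21 in the order given above, beside 0.27 over all genes. The tertiary granule and secretory list had a median of 0.15 there, ribosomal protein genes 1.03 and oxidative phosphorylation genes 1.69. Monocyte-macrophage markers were at 1000 CPM or more in 8 of the 30 members and 2 of the 21 high neutrophils. The part of these cells in the WT day 3 medians was not tested.

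Stfa3, the neighbour outside the limit, had 0 reads in the members of every pool. In high neutrophils it had 142 CPM in Ccr2-/- day 3, with reads in 12 of 153 cells, and 83.8 CPM in Ccr2-/- day 5, with reads in 31 of 325 cells. Against a floor of 3 reads per pool its level in members was at least 91.5-fold lower on day 3 and at least 106-fold lower on day 5. This floor treats reads as independent, and 1 cell held 22.3% and 28.2% of the reads in high neutrophils. Stfa3 reached 50 CPM through the high neutrophils only, so these values are a description. Cstdc6, another copy, had 1.04 and 0.527 CPM in members and 29.7 and 34.5 CPM in high neutrophils, but 33.7% of its 50-base windows are also in another stefin transcript. Cstb, the gene of stefin B, lies apart from the cluster and had 565 and 659 CPM in members beside 524 and 472 CPM in high neutrophils.

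Retnlg, which encodes a resistin-like protein of neutrophils, was lower in members. It had 317 CPM in WT day 3, 216 CPM in Ccr2-/- day 3 and 523 CPM in Ccr2-/- day 5, against 1275, 676 and 934 CPM in high neutrophils (log2 ratio -1.64 on day 3 and -0.84 on day 5 in Ccr2-/-). A few cells held these reads: the top 10% of members by Retnlg level had 96.4% of them on day 3 and 90.3% on day 5. Fpr1, a receptor for formylated peptides, had 119 CPM in members and 320 CPM in high neutrophils on day 3 but 256 and 264 CPM on day 5, and it had 235 and 242 CPM in WT day 3, so it was lower in members of 1 pool only.

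Amd1, Ccnt1 and Igfbp6 were with Stfa3 the genes at least 2-fold lower in members of both pools. Amd1, an enzyme of polyamine synthesis, had 28.5 and 27.1 CPM in members and 73.0 and 82.0 CPM in high neutrophils, and its direction turned when the stefin limit was set at 4000 CPM. Ccnt1, a cyclin of transcription elongation, had 29.5 and 26.6 CPM beside 74.6 and 64.3 CPM. Igfbp6, a binding protein of insulin-like growth factors, had 72.0 and 47.7 CPM beside 177 and 106 CPM. Retnlg, Acsl4, Fam110a, Exoc1, Cdk17, Pdlim7, Srsf1 and Bend4 followed by size and missed 2-fold in at least 1 pool.

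Ctsa, which encodes cathepsin A, a lysosomal carboxypeptidase, was higher in members of both Ccr2-/- pools. It had 139 CPM in Ccr2-/- day 3 (123 to 157) and 203 CPM in Ccr2-/- day 5 (189 to 218), against 48.4 and 87.7 CPM in high neutrophils (log2 ratios 1.51 and 1.20), and its top cell held 9.29% and 9.46% of the member reads. In WT day 3 the order was the other way, with 140 CPM in 30 members and 334 CPM in 21 high neutrophils. Aplp2, an amyloid precursor-like membrane protein, had 101 and 112 CPM against 37.8 and 48.0 CPM (log2 ratios 1.39 and 1.20), and in WT day 3 it had 119 CPM against 209 CPM, with 93.3% of the member reads from 1 cell. Ctsa and Aplp2 thus pointed the same way in both Ccr2-/- pools and the opposite way in WT day 3.

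Some genes at the top of the ranking had most of their reads in 1 cell. Plvap, Col4a1 and Col4a2 are genes of blood vessel walls, and Il6 is a cytokine gene of fibroblasts and endothelium among others. Plvap had 344 and 132 CPM in members and 3.53 and 25.2 CPM in high neutrophils, but 1 cell held 89.3% of the member reads on day 3 and 80.5% on day 5. For Col4a1 (204 and 198 CPM against 14.6 and 41.8 CPM) 1 cell held 63.1% and 59.3%. For Il6 (171 and 114 CPM against 52.9 and 20.2 CPM) 1 cell held 84.9% and 36.2%. In all, 1 cell gave over 50% of the member reads in a pool for 7 of the 22 higher genes. When the cells with at least 1000 CPM of endothelial or mast cell genes were left out (9 and 15 members, 7 and 7 high neutrophils, a choice made after the data were seen), the count of higher genes was 11, and the day 5 log2 ratio of Plvap went from 2.35 to -0.19. Filip1l, Gpx3 and Pdlim1 also ranked among the 12 largest and had over 50% of the member reads of a pool in 1 cell. Col4a2, Ptpra, S100a13 and Tmem43 did not, and the top cell held 44.6% and 38.8% for Col4a2, 32.7% and 12.8% for Ptpra, 24.8% and 25.6% for S100a13, and 13.2% and 11.2% for Tmem43.

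The Ccr2-/- neutrophils were also set out in 5 bins of the stefin level, again as a description. S100a8, which chose the cells in part, stood on day 5 at 13878 CPM in cells with 0 stefin reads, at 10435 CPM between 500 and 2000 CPM and at 19563 CPM at 10000 CPM or more. Stfa3 had 0 CPM in the 3 bins under the limit in both pools and had 358 CPM on day 3 and 150 CPM on day 5 in the top bin. Ctsa had 133 CPM in the lowest and 14.0 CPM in the highest bin on day 3, and 162 and 62.7 CPM on day 5. Fcgr2b, the inhibitory IgG receptor, had 988 and 557 CPM in these bins on day 3 and 724 and 375 CPM on day 5. Il1b, at 20483 and 24409 CPM in the lowest bin and 23120 and 23292 CPM in the highest, and Hcar2, at 1768 and 1946 CPM beside 1865 and 1275 CPM, had no common direction in the 2 pools. The median depth of the 5 bins lay between 9234 and 11313 reads over both pools.

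**Figure D3:**
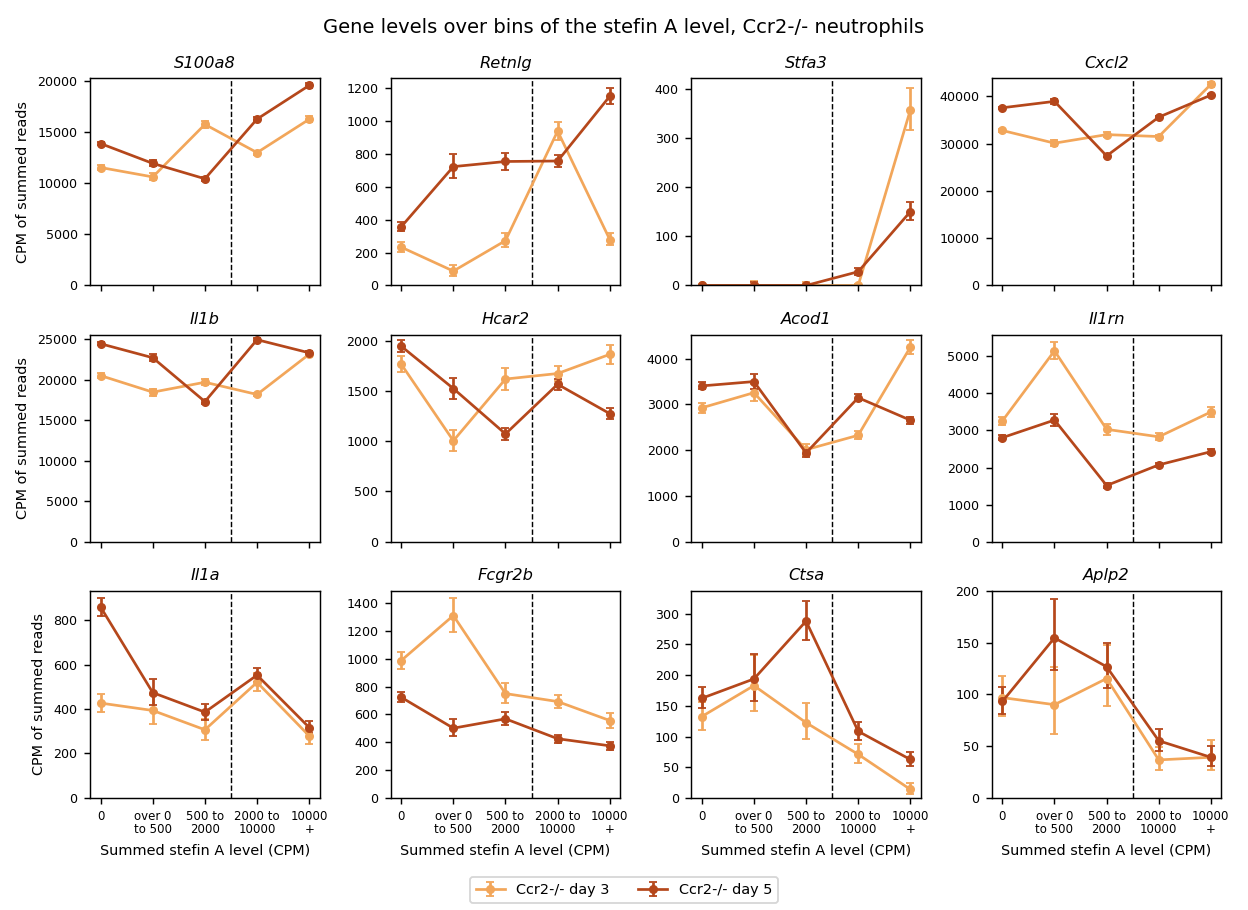
Level of 12 genes (CPM of summed reads, axes from 0) in the Ccr2-/- neutrophils of day 3 and day 5, by bin of the summed stefin A level, with exact 95% Poisson intervals and the limit of 2000 CPM dashed. Stfa3 is at 0 in the 3 bins under the limit, Ctsa is lowest in the top bin, and Il1b changes little between the lowest and the highest bin.

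The members carried much of the IL-1 message of the Ccr2-/- skin. Il1b encodes the cytokine IL-1 beta, which is released after cleavage by caspase-1. It had 12712 CPM in WT day 3 members (12355 to 13076), 19861 CPM in Ccr2-/- day 3 (19663 to 20061) and 22092 CPM in Ccr2-/- day 5 (21943 to 22242). The high neutrophils had 17570, 20128 and 24174 CPM, so in each pool the sum over all members was at or below theirs. In WT day 3 the median per cell was 14950 CPM in members and 15952 CPM in high neutrophils. Without the members that carried macrophage genes the WT day 3 level was 23105 CPM, so the order there depends on these cells. Il1a, the cell-associated ligand of the same receptor, had 47.6, 386 and 666 CPM, and 24.7% of the Ccr2-/- day 5 members had a read of it before thinning. Il1r2, the decoy receptor, had 1598, 2181 and 2879 CPM. Nlrp3, the inflammasome sensor, had 1110, 688 and 1185 CPM.

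As a share of all reads of a gene in the cells of a pool, members held 16.0% of the Il1b reads in WT day 3, 1.45% in WT day 5, 36.5% in Ccr2-/- day 3 and 37.8% in Ccr2-/- day 5. High neutrophils held 14.0, 1.69, 38.1 and 42.0% in the same order, and macrophage-gate cells 38.1, 56.5, 2.07 and 0.952%. Of these groups, macrophage-gate cells held the most Il1b reads in both WT pools and neutrophils in both Ccr2-/- pools. For Il1rn the members held 6.45% in WT day 3, 0% in WT day 5, 36.2% in Ccr2-/- day 3 and 38.6% in Ccr2-/- day 5, and macrophage-gate cells 53.1, 59.6, 3.94 and 1.89%. These shares follow the number of cells as well as the level per cell, and the 2 cannot be told apart in them.

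Among chemokines, Cxcl2 was the highest. It encodes a ligand of CXCR2, the main chemokine receptor of neutrophils. It had 15499 CPM in WT day 3, 32033 CPM in Ccr2-/- day 3 and 34829 CPM in Ccr2-/- day 5 in members, beside 26064, 35899 and 37736 CPM in high neutrophils. Ccl3 had 3688, 8508 and 8214 CPM and Ccl4 had 1440, 9449 and 7676 CPM. Cxcl3 had 63.4, 696 and 709 CPM, with reads in 6.67%, 30.8% and 29.7% of the members. Il1b, Cxcl2, Ccl3 and Ccl4 together took 3.33% of all member reads in WT day 3, 6.99% in Ccr2-/- day 3 and 7.28% in Ccr2-/- day 5. The WT day 3 share includes the members that carried macrophage genes. Without such cells the day 3 log2 ratio of Ccr2-/- over WT went from 1.05 to 0.47 for Cxcl2 and from 1.21 to 0.39 for Ccl3. It went from 0.64 to -0.26 for Il1b and from 2.71 to 2.07 for Ccl4. The difference between genotypes in the summed share therefore depends in part on these cells.

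Levels varied widely from member to member. In Ccr2-/- day 5 Il1b ran from 0 to 78635 CPM with a median of 22323 CPM, and the top 34 of 340 cells held 25.7% of its reads. Ccl4 ran from 0 to 88182 CPM with a median of 4117 CPM, and the top 34 cells held 43.0%. Il1a had a median of 0 CPM, and the top 34 cells held 79.2%. Reads of Il1b were found in 336 of the 340 members and reads of Il1a in 84, and at this depth a cell without a read may still hold the transcript.

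Receptors of activation were at high levels too. Clec7a (Dectin-1, a receptor for fungal beta-glucan) had 2026 CPM in WT day 3, 6968 CPM in Ccr2-/- day 3 and 5967 CPM in Ccr2-/- day 5. Cd14, the co-receptor for lipopolysaccharide, had 1812, 4961 and 5399 CPM. Clec4d and Clec4e, 2 lectin receptors for microbial glycolipids, had 2039, 2291 and 2217 CPM and 1630, 1998 and 2437 CPM. Csf1, the growth factor of macrophages, had 1030, 4374 and 2943 CPM, with 45.6% of the WT day 3 reads from 1 cell. Ptgs2, the inducible enzyme of prostaglandin synthesis, had 1078, 1795 and 2555 CPM.

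Genes of primary and secondary granules, which are made at immature stages, were uneven. Mpo had 3 reads and Elane 0 reads in all pools of members, which places Elane at under 0.790 CPM by the floor of 3 reads in Ccr2-/- day 5. Ctsc, a protease gene in the same list that macrophages also use, made up nearly all of the rest of the primary granule list, with 354, 32.1 and 71.6 CPM. Of secondary granules, Ltf had 0 reads, but the list of 7 genes summed to 1041, 515 and 769 CPM. Most of it was Lcn2 with 560, 176 and 418 CPM, Chil3 with 330.2, 117 and 190.2 CPM and Mmp8 with 151, 187 and 146 CPM. Mmp9, of tertiary granules, had 565 CPM in WT day 3, 845 CPM in Ccr2-/- day 3 and 926 CPM in Ccr2-/- day 5. Ly6g, a surface gene often used to sort mouse neutrophils, had reads in 4.40% and 2.65% of the Ccr2-/- members and in none of the 30 WT day 3 members, at 39.9, 23.2 and 0 CPM (0 to 9.75 in WT day 3).

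Macrophage-gate cells of the Ccr2-/- pools (51 and 49 cells with Csf1r of at least 100 CPM, Lyz2 of at least 1000 CPM under 5000 CPM of S100a8 and S100a9 and under 2000 CPM of Dcn, Krt5 and Krt14, a gate chosen after the data were seen) served to place these levels. Of 3929 genes compared, members were at least 2-fold higher in both pools for 807 (20.5%) and lower for 1480 (37.7%), with median log2 ratios of -0.68 and -0.71. Members had at least 2-fold higher levels of 21 of the 23 activation receptors (median log2 ratio 3.89 and 4.41), of 8 of 10 IL-1 family genes (4.22 and 4.66) and of 14 of 19 genes of TNF and NF-kB feedback (1.97 and 1.89). Among 11 chemokines Cxcl2, Cxcl3, Ccl3 and Ccl4 were higher, and Cxcl16, Ccl2, Ccl6 and Ccl9 were lower. Members were at least 2-fold lower for 81 of 84 ribosomal protein genes (-1.95 and -2.07), 62 of 79 oxidative phosphorylation genes (-1.73 and -1.95) and 8 of 13 lysosomal genes (-1.66 and -1.76). The gates differed in depth, with medians of 56246 and 57056 reads in the macrophage gate, and the part of depth in these ratios was not tested.

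In values, Hcar2 had 29.7 and 16.4 CPM in the macrophage gate of Ccr2-/- day 3 and day 5, a level 51.4-fold and 94.2-fold below that of the members. Il1rn had 207 and 124 CPM, 17.1-fold and 19.9-fold below. Il1b had 604 and 567 CPM, 32.8-fold and 38.9-fold below. The 12 genes that stood highest in members by this comparison were Hdc, Il1f9, Asprv1, Retnlg, Mirt1, G0s2, Trem3, Mrgpra2b, Acod1, Klra17, Olfm4 and Csf1. Hdc, which makes histamine from histidine, had 1124 and 1591 CPM against 3.34 and 5.63 CPM. G0s2, an inhibitor of triglyceride breakdown, had 1721 and 1660 CPM against 9.73 and 0.268 CPM. Il1f9, the cytokine IL-36 gamma, had 836 and 608 CPM against 2.50 and 0.804 CPM. Those lowest in members were macrophage genes such as C1qa (3.63 and 6.32 CPM against 1589 and 1862 CPM), Cd209a, Mgl2 and Folr2.

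**Figure D4:**
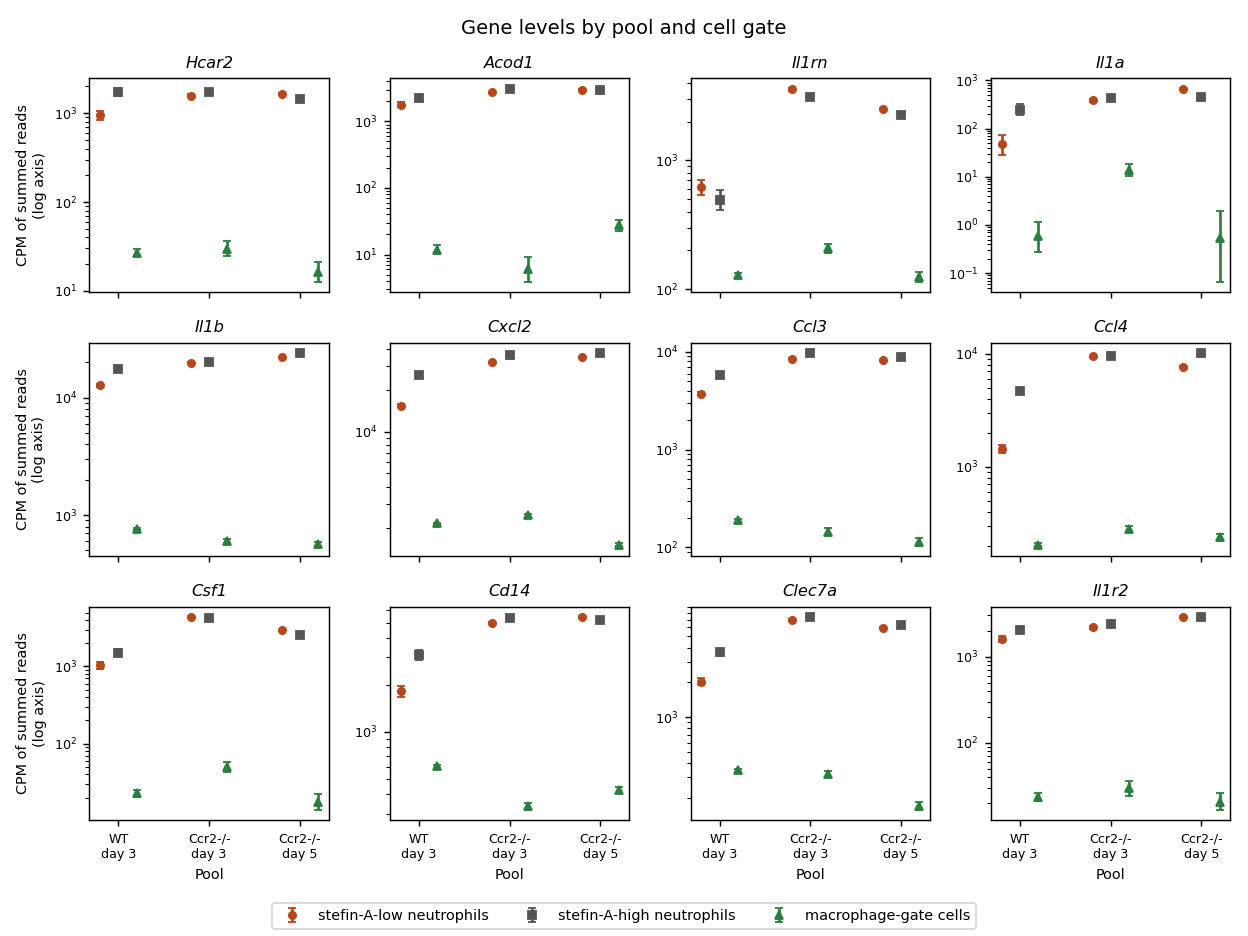
Level of 12 genes (CPM of summed reads, log axes) in stefin-A-low neutrophils, stefin-A-high neutrophils and macrophage-gate cells of WT day 3, Ccr2-/- day 3 and Ccr2-/- day 5, with exact 95% Poisson intervals for counting error. The low and high neutrophils lie close together in the Ccr2-/- pools and far above the macrophage gate, for example 1580 and 1750 CPM of Hcar2 on day 3 beside 29.7 CPM.

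Short stretches before 5 of these genes are shown for the letters GGAANTTCC, in capitals, because the genes are high in members and belong to the NF-kB feedback, chemokine or itaconate genes described above. The letters are a form of the motif bound by NF-kB factors, the genes and the motif were chosen after the data and promoters were seen, and the build and source are as for the stefin genes.
Cxcl2 (chr5:90903783-90903832, plus strand): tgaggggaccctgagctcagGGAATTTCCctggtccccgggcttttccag
Cxcl3 (chr5:90786009-90786058, plus strand): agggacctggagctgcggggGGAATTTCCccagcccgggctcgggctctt
Acod1 (chr14:103046907-103046956, plus strand): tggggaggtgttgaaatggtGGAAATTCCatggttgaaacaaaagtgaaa
Nfkbia (chr12:55492647-55492696, minus strand): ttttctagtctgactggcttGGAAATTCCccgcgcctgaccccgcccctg
Icam1 (chr9:21015767-21015816, plus strand): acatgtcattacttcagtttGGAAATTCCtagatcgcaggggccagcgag

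On either strand the letters were in 255 of 27025 genes with a promoter window (0.944%). They were in 4 of 16 genes of TNF and NF-kB feedback, 4 of 9 chemokines, 2 of 11 IL-1 family genes, 2 of 17 activation receptors, 1 of 11 immunometabolic genes and 0 of the 7 stefin genes. Nfkbia, the inhibitor that NF-kB itself induces, had 4438 CPM in WT day 3, 6069 CPM in Ccr2-/- day 3 and 6560 CPM in Ccr2-/- day 5. Icam1, an adhesion molecule, had 158, 617 and 625 CPM. A match of letters is a description of the sequence and not a binding site.

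Between day 3 and day 5 of Ccr2-/- the inflammatory lists held few genes past 2-fold. Of 3201 genes with at least 50 CPM on either day, 195 (6.09%) were at least 2-fold higher on day 5 and 207 (6.47%) lower, and the median log2 ratio was -0.01. There was 1 pool per day, so these are sizes without a test. None of the 19 genes of TNF and NF-kB feedback reached 2-fold in either direction, nor did any of 9 IL-1 family genes. Of 15 interferon-stimulated genes 3 were lower and none higher, with a median log2 ratio of -0.33. Ifit1 went from 134 CPM (118 to 151) to 57.2 CPM (49.8 to 65.3), Slfn5 from 508 to 218 CPM and Oasl2 from 92.2 to 42.1 CPM. Isg15, another gene of this list, had 536 and 491 CPM.

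Of 12 tertiary granule and secretory genes 3 were higher on day 5 and none lower, beside 6.09% higher and 6.47% lower over all genes. Retnlg went from 216 to 523 CPM, Wfdc21 from 65.2 to 158 CPM and Ifitm6 from 45.6 to 148 CPM. Fpr1 (119 to 256 CPM) and Lcn2 (176 to 418 CPM, an iron-trapping granule protein) moved the same way. Retnlg had a median of 0 CPM per member on both days, and the top 10% of members held 96.4% and 90.3% of its reads. Ifitm6 was counted with the secretory genes here, but the study names it as interferon-inducible. The interferon-stimulated list above does not hold it, so the absence of higher genes in that list does not cover Ifitm6. Il1rn had 3549 CPM on day 3 and 2497 CPM on day 5 (log2 ratio -0.51), and Il1a 386 and 666 CPM (0.79).

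The genes with the largest ratios between days rested on single cells. Chchd10, Acta1, Cd163, Cpa3, Mcpt4, Cma1, Pf4 and Tpm2 ranked highest on day 5, and 1 cell held 55.8 to 97.9% of the day 5 reads of each. The basophil and mast cell markers summed to 19.7 CPM on day 3 and 304 CPM on day 5, with 67.0% of the day 5 reads from 1 cell. Cpa3, Mcpt4 and Cma1 are mast cell proteases, with 81.4, 219 and 139 CPM on day 5 beside 2.59, 9.84 and 6.21 CPM on day 3. Jam2, Adgrf5, Podxl, Polr3gl, Lrrc8c, Scarb1, Adgrl4 and Cxcl12 ranked lowest, and 1 cell held 58.5 to 88.9% of the day 3 reads of each. Without the cells that carried endothelial or mast cell genes the log2 ratio of Mcpt4 went from 4.35 to -0.20 and that of Jam2 from -4.16 to 1.96.

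Between genotypes only day 3 could be compared, with 30 WT and 159 Ccr2-/- members from 1 pool each and no test. Of 4125 genes 648 (15.7%) were at least 2-fold higher in Ccr2-/- and 1397 (33.9%) lower, with a median log2 ratio of -0.47. Macrophage genes moved with genotype, as the marker sums of 2362 and 310 CPM given above show. Without the members that had at least 200 CPM of Csf1r, C1qa, C1qb, C1qc and Mrc1, 18 of 30 WT and 124 of 159 Ccr2-/- cells were left and the median log2 ratio was -0.08. Of 3676 genes compared in them, 1141 (31%) were higher and 1115 (30.3%) lower. Values are therefore given with all members and then without these cells.

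Il1rn stayed higher in Ccr2-/- in both versions. It had 618 and 3549 CPM with all members (log2 ratio 2.52) and 814 and 3399 CPM without the macrophage-gene cells (2.06). Ccl4 had 1440 and 9449 CPM (2.71), then 2526 and 10579 CPM (2.07). Cd14 had 1812 and 4961 CPM (1.45), then 1691 and 4800 CPM (1.50). Csf1 (2.08, then 1.18), Tnfaip2 (1.96, then 1.49), Cd274 (1.70, then 1.55), Osm (2.34, then 2.92), Gbp2 (2.05, then 3.46), Cxcl3 (3.44, then 2.20) and Il1a (2.99, then 1.89) kept log2 ratios above 1. For Gbp2, Cxcl3, Il1a and Osm these ratios rest on low WT levels. With all WT members Cxcl3 had 63.4 CPM and Il1a 47.6 CPM, and at most 3 of the 30 cells held all Il1a reads. Without the macrophage-gene cells Gbp2 had the lowest WT level of the genes named here, and Osm had 131 CPM. The 95% counting intervals there were 2.59 to 4.54 for Gbp2, 1.63 to 2.85 for Cxcl3, 1.23 to 2.66 for Il1a and 2.28 to 3.66 for Osm. Cd274 encodes PD-L1, Osm the cytokine oncostatin M, and Gbp2 a GTPase induced by interferon-gamma.

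Other genes did not keep their ratio. Il1b had 12712 and 19861 CPM with all members (log2 ratio 0.64) and 23105 and 19248 CPM without the macrophage-gene cells (-0.26). Hcar2 went from 0.74 to -0.32, Clec7a from 1.78 to 0.84, Cxcl2 from 1.05 to 0.47, Ccl3 from 1.21 to 0.39 and Acod1 from 0.60 to 0.30. Lyz2, a lysozyme gene of macrophages, went from -2.50 to -0.57. Nlrp3 (-0.69, then -1.50) and Ccl6 (-1.34, then -1.69) were lower in Ccr2-/- in both versions. In the list of 23 activation receptors 10 were at least 2-fold higher and none lower with all members (median 0.74, beside 15.7% higher and 33.9% lower over all genes). Without the macrophage-gene cells 6 were higher and 2 lower (median 0.40), a share of 26.1% higher beside 31% over all genes. In TNF and NF-kB feedback 9 of 19 were higher and 1 lower with all members (0.97), and 7 higher and 1 lower without these cells (0.15). Medians of other lists changed sign. Ribosomal protein genes went from 1 of 82 higher and 23 lower (-0.73) to 39 of 81 higher and 1 lower (0.95). Oxidative phosphorylation genes went from a median of -0.77 to 0.93. The second version thus rests on 18 WT cells, and a ratio kept in both versions carries that limit. Why leaving out the macrophage-gene cells moved the ratios was not tested.

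**Figure D5:**
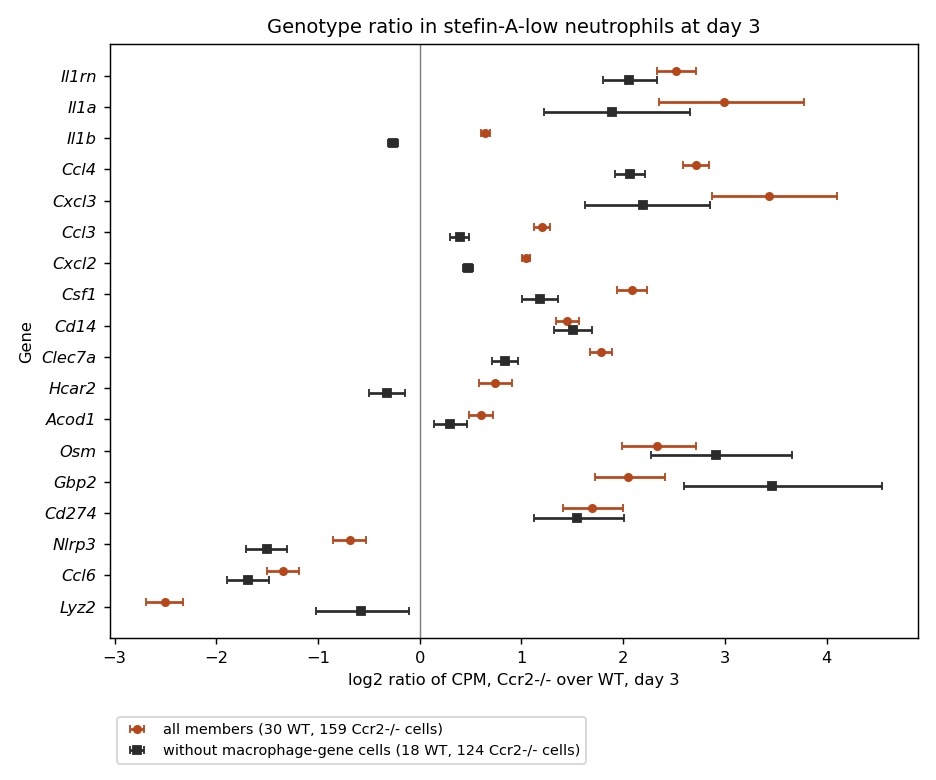
Log2 ratio of CPM, Ccr2-/- over WT, in day 3 members for 18 genes, with all 30 and 159 members (circles) and without the macrophage-gene cells (squares, 18 and 124 members). Bars are 95% intervals for counting error. Il1rn, Ccl4, Cd14, Osm and Gbp2 stay above 1 in both versions, Osm and Gbp2 from low WT levels. Il1b and Hcar2 lie on opposite sides of 0 between the versions.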

How the data were processed

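Ear skin cells of the 4 pools were captured on a bead-based microwell platform (BD Rhapsody) and sequenced as 1 cDNA and 1 hashtag library by TAS-Seq. Per the study's methods, the authors removed adapters (cutadapt) and mapped the reads to mouse transcripts of GRCm38.p6 (Bowtie2). They also corrected for RNA that diffuses between wells, and whether the deposited values carry that correction is not given in the sources used here. The deposited tables hold whole-number read counts per gene or hashtag and barcode, not molecules, and 22.1% of the gene values above 0 are 1. The deposited counts of 8953 barcodes and 35208 gene rows were used, and 8696 of the barcodes are also in the hashtag table. The other 9 hashtag columns were not used. The methods state that doublets were identified by hashtags, and no doublet caller was run here.

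Counts were analysed with Python 3.11.15, numpy 2.4.6, pandas 2.3.3, scipy 1.17.1 and matplotlib 3.10.9. A hashtag count was divided by its column total before the ratio of 3. Reads were summed over the cells of a group and pool and given as CPM. Exact 95% Poisson and binomial (Clopper-Pearson) intervals cover counting error only, and reads of 1 molecule are not independent. Log2 ratios use a pseudocount of 1 CPM and genes of at least 50 CPM in either group. With 1 pool per group genes had no test, and shares were compared over pools by an exact permutation test. Thinning drew 3000 reads per cell without replacement, and the shallowest barcode had 3113.

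Members, lists and rules were chosen with earlier results of these data known. Genes named were the 12 highest and 12 lowest by the smaller ratio of both Ccr2-/- pools, the 8 highest and 8 lowest between days, and the marker genes. Other genes were picked from the lists after their values were seen. The macrophage gate, the fibroblast gate (at least 5000 CPM of Dcn and Col1a1, no Csf1r read) and the limit on endothelial and mast cell genes were chosen after seeing the data. Alternatives covered the limits, hashtag ratio, scaling, pseudocount, depth and each pool left out. The steps were tested on simulated data.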

Additional observations from a re-analysis of the deposited data

Results flagged for a closer look

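The share of stefin-A-low neutrophils among the cells of a pool moved in opposite directions between the days in the genotypes. From day 3 to day 5 it changed by -1.68 percentage points in WT (30 of 1613 to 2 of 1091 cells) and by 6.49 points in Ccr2-/- (159 of 2274 to 340 of 2522 cells). There was 1 pool per genotype and day, so the difference between these changes was not tested.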

How the results depend on the processing

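The difference between genotypes in the share of all cells kept its direction under every alternative run. The difference in the share of neutrophils, -3.37 points, became 8.84 points at a stefin limit of 1000 CPM and ranged from -7.78 points without the WT day 5 pool to 1.04 points without the WT day 3 pool. No paired analysis was possible because the labels give no replicate numbers, and the values within each day stand beside the shares. Of the main shares, differences and counts under alternatives, 151 stayed within their limits, 36 moved and 2 turned. Of single-gene values, 1084 stayed, 448 moved and 22 turned. The causes were not tested.

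The share of cells in Ccr2-/- day 3 and day 5 was 5.58% and 11.9% at a stefin limit of 1000 CPM, 8.36% and 15.7% at 4000 CPM, 5.76% and 11.1% with Dcn, Krt5 and Krt14 under 500 CPM, and 5.45% and 11.02% without macrophage-gene cells (WT day 3 1.12%). With S100a8 and S100a9 of at least 20000 CPM there were 339 members, or 1.24% of WT day 3, 4.22% of Ccr2-/- day 3 and 8.80% of Ccr2-/- day 5.

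The 22 genes higher in members than in high neutrophils became 7 at a stefin limit of 1000 CPM, 86 at 4000 CPM, 53 with Dcn, Krt5 and Krt14 under 500 CPM, 12 without cells of over 50000 reads, 126 with genes of at least 20 CPM, 128 against high cells of at least 10000 CPM, and 11 without endothelial or mast cell genes (an alternative added after seeing the data). The 4 lower genes became 10 at a stefin limit of 1000 CPM, 9 with the S100 limit of 20000 CPM, 7 with Dcn, Krt5 and Krt14 under 500 CPM, 9 without macrophage-gene cells, 8 after thinning, 8 with CPM outside mitochondrial and limit genes, 7 with median-of-ratios scaling, 27 with genes of at least 20 CPM and 12 against high cells of at least 10000 CPM. These counts are small and depend on the settings.

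Between days, the 195 higher and 207 lower genes became 708 and 714 with genes of at least 20 CPM. The lower count was 436 at a stefin limit of 1000 CPM and the higher count 115 at 4000 CPM. Between genotypes, the 648 higher and 1397 lower genes became 1587 and 2317 with genes of at least 20 CPM, and the higher count was 1141 without macrophage-gene cells.

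Log2 ratios of members to high neutrophils turned at a stefin limit of 1000 CPM for Plvap (-2.50), Pdlim1 (-1.81), Col4a1 (-1.85) and Col4a2 (-1.40) on day 5. At 4000 CPM Amd1 turned to 0.23 on day 3 and 0.083 on day 5, and Srsf1 to 0.35 on day 5. With the S100 limit of 20000 CPM Pdlim1 turned to -1.18 and Il6 to -0.14 on day 3, and Plvap to -0.87 on day 5. Pdlim1 turned to -0.55 on day 5 after thinning. Without endothelial or mast cell genes S100a13 turned to -0.30 on day 3, and Plvap to -0.19, Pdlim1 to -0.71, Col4a1 to -0.30 and Col4a2 to -0.18 on day 5. The same alternative gave day ratios of -0.20 for Mcpt4, -0.89 for Cma1, 1.96 for Jam2, 0.42 for Adgrf5, 0.73 for Scarb1 and 0 for Adgrl4.

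The WT values rest on few cells, 30 members of WT day 3 with 378538 reads in all and 2 members of WT day 5 with 21284. Leaving out the macrophage-gene cells moved Il1b of WT day 3 from 12712 to 23105 CPM.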
